A study of Homo sapiens with 4 samples.

Results

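Regulators of G-protein signalling (RGS proteins) were followed as 10 genes, RGS1, RGS2, RGS3, RGS10, RGS12, RGS13, RGS14, RGS16, RGS18 and RGS19, among the 61267 genes of a count table. The family was picked on measured values, because RGS1 and RGS2 were among the largest increases between the same groups compared here. Levels and fold changes of the 10 genes are therefore a description, without a test. Stranded mRNA libraries were sequenced from SU-DHL-2 cells, a human diffuse large B-cell lymphoma line labelled as wild type. The vehicle group (2 libraries) received a solvent that the labels do not name, with no time given, and the Spautin-1 group (2 libraries) received Spautin-1, an inhibitor of the deubiquitinases USP10 and USP13, at 10 µM for 36 h. All cells grew in the same serum-containing medium. The labels do not say that the libraries of a group came from separate cultures, so errors and p-values cover only how far these libraries differ, which may be technical.

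RGS proteins shorten signals from G-protein-coupled receptors. An activated receptor loads the G alpha subunit with GTP, and the RGS domain speeds the hydrolysis of that GTP, which returns alpha and beta-gamma subunits to the resting complex. In B cells these receptors include those for chemokines, sphingosine 1-phosphate and oxysterols, which guide cells into and out of follicles, and RGS1 and RGS13 are known as brakes on chemokine responses in germinal-centre B cells. The small members of the R4 subfamily (RGS1, RGS2, RGS13, RGS16, RGS18 and, in a longer form, RGS3) consist of little more than the RGS domain. RGS10, RGS12 and RGS14 form the R12 subfamily, and RGS19 belongs to the RZ subfamily.

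The libraries held 34115420 to 38362526 counts. Of counts from 1 to 20, between 74.3% and 76.8% were even in each library, so both reads of a pair may have been counted. The interval given for a low count below was therefore computed on halved counts. The main fit, its filter and the reads given below used the counts as deposited, so low read counts may stand for fewer independent fragments. All 9 B-cell markers looked up, among them CD79A and PAX5, reached at least 1 CPM (read counts scaled to a common library size with TMM factors) in every library. Every T-cell (7), NK-cell (4), myeloid (7) and fibroblast (5) marker stayed under 1 CPM in each library, with summed levels per library of 0.906 to 1.42, 0.173 to 0.605, 1.39 to 1.99 and 0.345 to 0.746 CPM. TRAC, KLRD1, GNLY and COL3A1 had no read. Of 5 platelet markers, GP1BA alone passed 1 CPM, and it was lower with Spautin-1 (edgeR adjusted p = 0.0278). The summed plasma-cell markers were 475 and 739 CPM in vehicle and 970 and 1148 CPM in Spautin-1. XBP1 made up most of these sums (422 and 691, then 781 and 943 CPM). The plasma-cell markers SDC1 and TNFRSF17 stayed under 1 CPM in every library. Called higher were 3 of 4 tested plasma-cell markers (PRDM1, XBP1 and IRF4) and 4 of 9 B-cell markers, beside 11.5% of all genes. CD79B and BLK were lower in both Spautin-1 libraries than in either vehicle library, but not called (edgeR adjusted p = 0.0685 and 0.233). The part of these marker differences in the RGS values was not tested. In these bulk samples, fewer cells with an mRNA and less of it per cell cannot be told apart.

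RGS1 (chromosome 1, 192575763 to 192580024, plus strand, GRCh38), a small GTPase-activating protein for Gi and Gq subunits, was at a low level in vehicle. It had 104 and 116 reads in the vehicle libraries and 8603 and 8444 reads in the Spautin-1 libraries. On the CPM scale these were 2.99 and 3.0 against 229 and 244, a log2 fold change of 6.30 ± 0.14 (± SE from the edgeR fit, n = 2 each). Both treated libraries lay far above both vehicle libraries, and the vehicle libraries were almost equal. By level per kilobase, RGS1 ranked at place 12549 of 18368 genes tested in vehicle and at place 797 in Spautin-1. RGS2 (chromosome 1, 192809039 to 192812275, plus strand), which acts chiefly on Gq and also binds adenylyl cyclase, had 120 and 168 reads in vehicle against 1476 and 1498 in Spautin-1. Its CPM values were 3.45 and 4.35 against 39.3 and 43.2, a log2 fold change of 3.40 ± 0.17. The groups again stood apart, and RGS2 moved from place 9125 to place 1993 in the ranking of levels.

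RGS16 and RGS13 were higher by less. RGS16 (chromosome 1, 182598623 to 182604389, minus strand), a stimulus-induced regulator of Gi and Gq, was at 4.55 and 6.29 CPM in vehicle and 13.6 CPM in each Spautin-1 library. That is a 2.50-fold higher level, or 1.32 ± 0.20 on the log2 scale, with no overlap of the groups. RGS13 (chromosome 1, 192636138 to 192660311, plus strand), the regulator typical of germinal-centre B cells, was well expressed in both groups. It stood at 36.5 and 30.1 CPM in vehicle and at 49.6 and 44.7 CPM in Spautin-1, a 1.42-fold higher level (0.50 ± 0.14 on the log2 scale), and the groups did not overlap. RGS18 (chromosome 1, 192158462 to 192185815, plus strand), best known from platelets and their precursors, did not pass the filter on low counts. It had 2 and 2 reads in vehicle and 6 and 10 in Spautin-1. The ratio of the pooled, halved counts (2 against 8) was 4.07, with an exact 95% interval of 0.812 to 39.3 that covers counting error only, so no difference was detectable at this depth. RGS18 also shares 153 exonic bases with the opposite-strand RNA gene ENSG00000285280, and use of the strand in counting was not given in the sources used here. RGS3 (chromosome 9, 113444731 to 113597743, plus strand), whose longer forms also bind beta-gamma subunits, was at 3.92 and 4.24 CPM in vehicle and 4.5 and 4.53 CPM in Spautin-1. Its log2 difference of 0.15 ± 0.23 was smaller than its SE.

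The members of the R12 and RZ subfamilies follow. RGS10 (chromosome 10, 119499817 to 119542719, minus strand), a short Gi-selective regulator, was at 27.1 and 33.0 CPM in vehicle and 33.3 and 34 CPM in Spautin-1. Its log2 difference was 0.16 ± 0.14, and it shrank to 0.02 without vehicle replicate 1 and grew to 0.31 without vehicle replicate 2. RGS12 (chromosome 4, 3293021 to 3439913, plus strand), a large scaffold with further signalling domains, was low and uneven, at 1.96 and 0.880 CPM in vehicle and 1.63 and 0.520 CPM in Spautin-1. The groups overlapped, and the log2 difference of -0.39 ± 0.55 changed sign to 0.29 without vehicle replicate 1 and to 0.21 without Spautin-1 replicate 2. RGS14 (chromosome 5, 177357924 to 177372596, plus strand), which also binds Gi through a second domain and links to Ras and Rap, had 116 and 218 reads in vehicle and 87 and 92 in Spautin-1. Its CPM values were 3.34 and 5.64 against 2.32 and 2.66, or -0.86 ± 0.30 on the log2 scale. The treated libraries lay below both vehicle libraries, but the vehicle libraries differed from each other by more than the lower of them did from either treated library, and the log2 value ran from -1.18 without vehicle replicate 1 to -0.43 without vehicle replicate 2. RGS19 (chromosome 20, 64073181 to 64079988, minus strand), also called GAIP, a regulator of Gi-class subunits, was at 15.7 and 18.9 CPM in vehicle and at 12.2 CPM in both Spautin-1 libraries. This was a 1.42-fold lower level (-0.51 ± 0.16 on the log2 scale) without overlap of the groups.

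**Figure D1:**
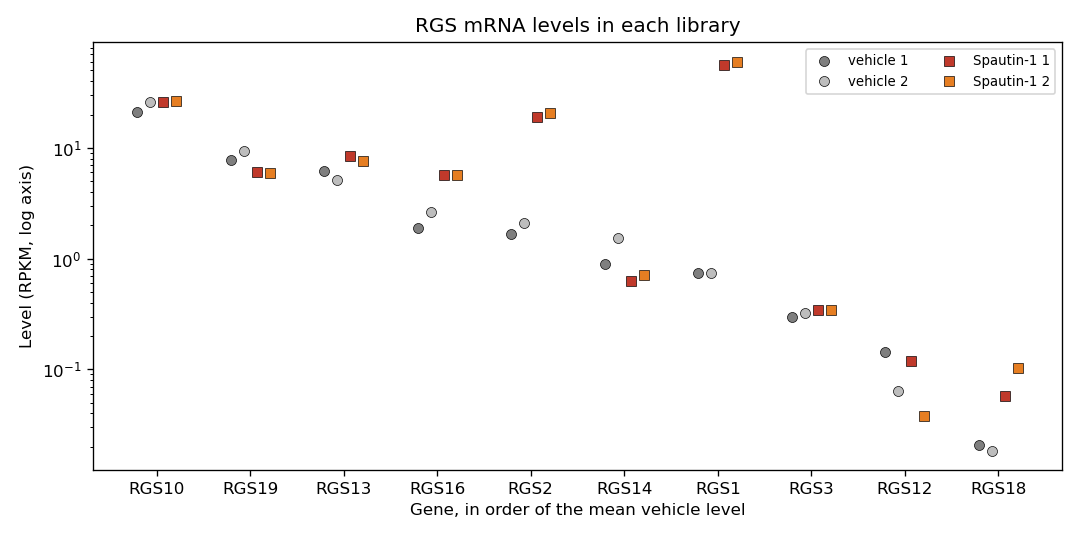
Level of each of the 10 RGS genes in each of the 4 libraries, as CPM per kilobase of exon (RPKM, log axis), with vehicle as circles and Spautin-1 as squares, ordered by the mean vehicle level. RGS1 and RGS2 lie far higher with Spautin-1, RGS16 and RGS13 lie higher by less, and RGS19 and RGS14 lie lower.

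Of the 10 genes, 9 passed the filter and 8 of these 9 had no overlap between groups, beside 61.4% of all genes tested (30.8% with both Spautin-1 libraries above, 30.6% with both below). Among the 9 tested, 4 were called higher (RGS1, RGS2, RGS13 and RGS16) and 1 lower (RGS19), beside 11.5% higher and 10.5% lower over all genes, together 22.0% (edgeR, adjusted p under 0.05 after Benjamini-Hochberg). Nothing is read from these counts, since the genes were chosen from this contrast. The median log2 fold change of the 9 was 0.16, and that of all genes tested was -0.01. RGS13 was not called without Spautin-1 replicate 1 or without Spautin-1 replicate 2, and RGS19 not without either of these or without vehicle replicate 2. RGS14 was called lower without vehicle replicate 1, with library size scaling, without a filter and with the replicate number as a block.

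**Figure D2:**
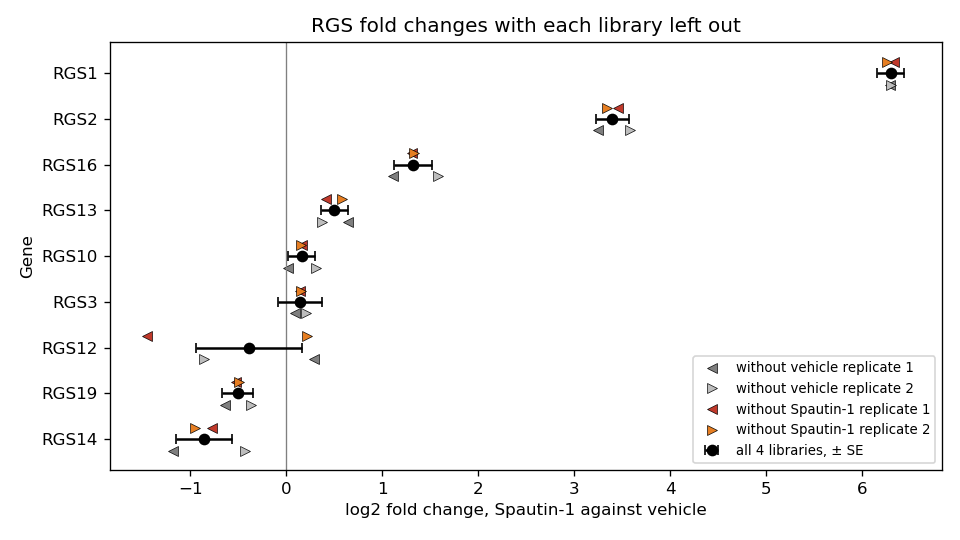
Log2 fold change of the 9 RGS genes that passed the filter, Spautin-1 against vehicle, with all 4 libraries (black, ± SE) and with each library left out (triangles). RGS1 stays between 6.26 and 6.33, whereas RGS12 lies on both sides of 0.

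The rank order within the family was rearranged. Levels of different genes were compared per kilobase of exon (RPKM, computed here from the exonic lengths in the table). These annotated lengths, such as 1274 bases for RGS10, 4074 for RGS1 and 5928 for RGS13, need not be those of the mRNAs present. The order and the shares below depend on them. In CPM, which uses no length, the vehicle means were 33.3 for RGS13 and 30.1 for RGS10. In vehicle, RGS10 led at 23.6 ± 3.29 RPKM (mean ± SD, n = 2), followed by RGS19 at 8.54 ± 1.13, RGS13 at 5.62 ± 0.76, RGS16 at 2.25 ± 0.51 and RGS2 at 1.87 ± 0.30. RGS14 (1.21 ± 0.44), RGS1 (0.736 ± 0.00136), RGS3 (0.310 ± 0.0177), RGS12 (0.103 ± 0.0554) and RGS18 (0.0195 ± 0.00147) came below. The ranges of RGS16 and RGS2 overlapped, and no other neighbours in this order did. In Spautin-1, RGS1 came first at 58.1 ± 2.50 RPKM, above RGS10 at 26.4 ± 0.42 and RGS2 at 19.8 ± 1.32. RGS13 (7.95 ± 0.59), RGS19 (6.01 ± 0.0289) and RGS16 (5.65 ± 0.000224) followed, then RGS14 at 0.671 ± 0.0642 and RGS3 at 0.344 ± 0.00145. RGS18 (0.0801 ± 0.0325) and RGS12 (0.0780 ± 0.0568) closed the order with overlapping ranges.

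The summed level of the 10 mRNAs was 40.8 and 47.7 RPKM in the vehicle libraries and 122 and 128 RPKM in the Spautin-1 libraries. RGS1 made up 1.80% and 1.54% of that sum in vehicle and 46.0% and 46.9% in Spautin-1. RGS10 made up 52.1% and 54.4% in vehicle and 21.3% and 20.9% in Spautin-1. Without RGS1 the sums were 40.1 and 47.0 RPKM in vehicle and 66.1 and 67.8 RPKM in Spautin-1. By RPKM, a family dominated by the RGS10 message in vehicle thus held more RGS1 than RGS10 message in both treated libraries. In CPM, RGS1 was also above RGS10 in both treated libraries, but RGS10 and RGS13 overlapped in vehicle.

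**Figure D3:**
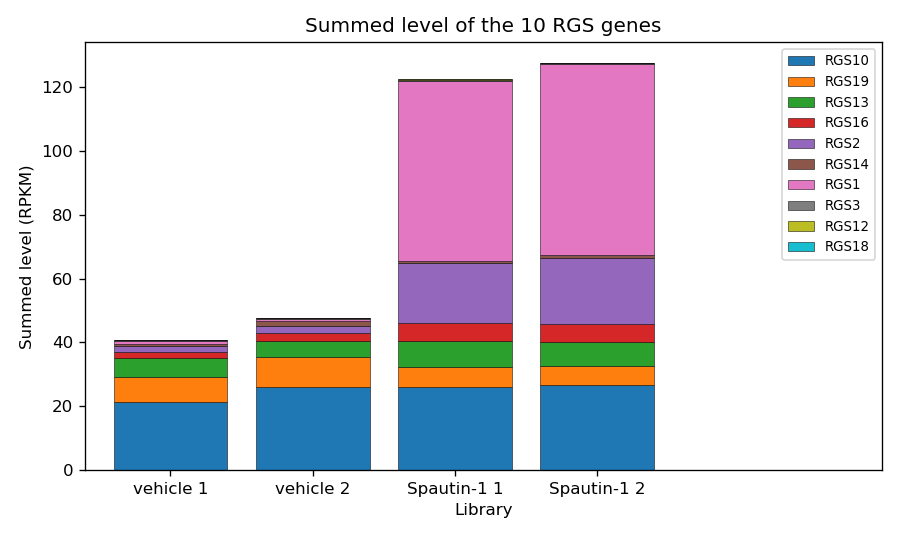
Summed level (RPKM) of the 10 RGS genes in each of the 4 libraries, with each gene as a segment of the bar. The sum is 40.8 and 47.7 in vehicle and 122 and 128 in Spautin-1, and RGS1 takes 46.0% and 46.9% of the treated bars.

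Several of these genes are neighbours. RGS18, RGS21, RGS1, RGS13 and RGS2 lie on the plus strand of chromosome 1 within 654 kb, with 56.1 kb between RGS1 and RGS13 and 149 kb between RGS13 and RGS2. Neighbours differed in how far they moved. RGS13, between RGS1 and RGS2, was 1.42-fold higher, RGS18 had 2 to 10 reads a library and RGS21, a taste-cell gene, had no read in any library. RGS16, next after RGS1 and RGS2 by fold among the tested members, lies elsewhere on chromosome 1. Within 500 kb of the span from RGS1 to RGS2, 8 genes other than the listed RGS genes were tested. By edgeR, 0 of these 8 were called higher and 0 lower, beside 11.5% and 10.5% of all genes, and 8 are too few to read anything from. Of these, UCHL5, a proteasome-bound deubiquitinase, was at 175 and 188 CPM in vehicle and 153 and 153 CPM in Spautin-1 (log2 fold change -0.25 ± 0.10, edgeR adjusted p = 0.104). CDC73, a subunit of the PAF1 transcription complex, was at 146 and 141 CPM in vehicle and 164 and 171 CPM in Spautin-1 (0.22 ± 0.10, adjusted p = 0.143 by edgeR). RO60 (-0.09 ± 0.12) and GLRX2 (-0.11 ± 0.22) differed by less than their SE. UCHL5 and RO60 share 419 exonic bases on opposite strands, and RO60 and GLRX2 share 481. The unnamed RNA gene ENSG00000285280, which spans the cluster on the opposite strand without sharing exonic bases with RGS1, RGS13 or RGS2, had 7 and 20 reads in vehicle and 40 and 35 in Spautin-1 (1.51 ± 0.60, edgeR adjusted p = 0.0926). ENSG00000289995 (1.07 ± 0.84), RPS27AP5 (-0.62 ± 0.79) and MIR4426 (-0.53 ± 0.80), the last 2 of which share bases, had at most 36 reads in a library. An unadjusted p under 0.05 was reached by UCHL5 and ENSG00000285280 alone. Without vehicle replicate 1, UCHL5 was called lower (-0.30) and CDC73 higher (0.25). Without vehicle replicate 2, ENSG00000285280 (2.35) and ENSG00000289995 (3.52) were called higher.

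**Figure D4:**
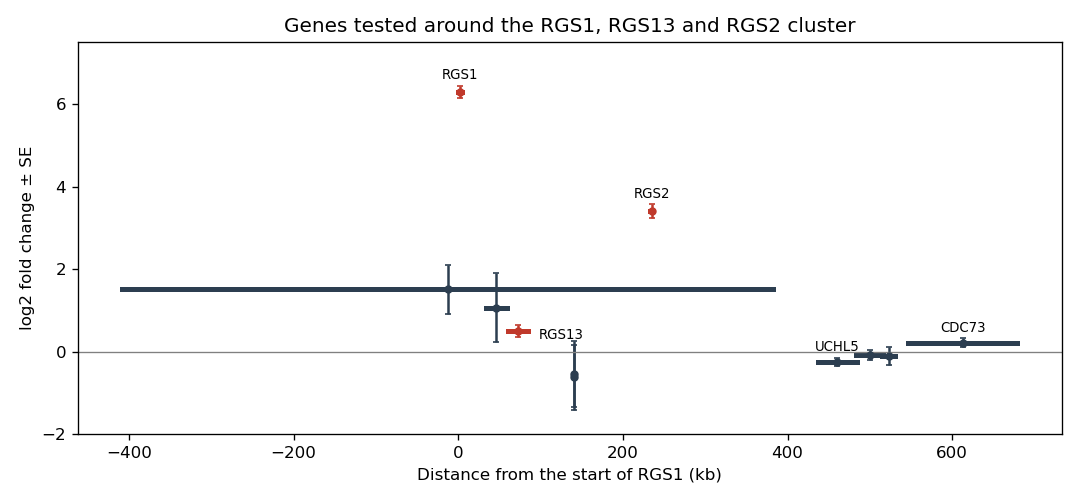
Log2 fold change (± SE), Spautin-1 against vehicle, of the tested genes around the RGS1, RGS13 and RGS2 cluster against distance from the start of RGS1 in kb, with bars for gene extent, RGS genes in red and others in dark blue. RGS1 and RGS2 stand at 6.30 and 3.40, while RGS13 between them is at 0.50.

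All 10 members had a promoter window, and those of the 4 members called higher are shown. Each holds 250 bases before to 50 after the RefSeq start (GRCh38.p14), 5′ to 3′ on the strand of the gene: RGS1 at chr1:192575523-192575822 (plus), RGS2 at chr1:192808789-192809088 (plus), RGS13 at chr1:192635897-192636196 (plus) and RGS16 at chr1:182604340-182604639 (minus). Capitals mark the matches described next.
RGS1: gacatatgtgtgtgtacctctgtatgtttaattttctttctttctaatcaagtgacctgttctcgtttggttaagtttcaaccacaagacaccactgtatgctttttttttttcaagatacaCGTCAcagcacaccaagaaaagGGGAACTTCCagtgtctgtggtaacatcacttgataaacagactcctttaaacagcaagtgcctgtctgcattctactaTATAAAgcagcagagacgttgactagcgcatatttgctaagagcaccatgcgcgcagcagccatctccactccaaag
RGS2: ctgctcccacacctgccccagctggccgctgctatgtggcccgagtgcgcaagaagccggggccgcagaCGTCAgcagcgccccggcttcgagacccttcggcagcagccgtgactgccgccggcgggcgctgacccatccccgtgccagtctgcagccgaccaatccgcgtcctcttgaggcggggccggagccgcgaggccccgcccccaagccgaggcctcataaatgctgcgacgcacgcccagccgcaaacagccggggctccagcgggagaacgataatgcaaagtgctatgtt
RGS13: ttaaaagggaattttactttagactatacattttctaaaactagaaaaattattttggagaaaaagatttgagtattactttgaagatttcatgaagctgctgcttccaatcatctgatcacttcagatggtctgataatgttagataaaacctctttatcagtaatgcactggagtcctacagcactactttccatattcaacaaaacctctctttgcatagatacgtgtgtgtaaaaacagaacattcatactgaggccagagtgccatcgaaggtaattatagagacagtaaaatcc
RGS16: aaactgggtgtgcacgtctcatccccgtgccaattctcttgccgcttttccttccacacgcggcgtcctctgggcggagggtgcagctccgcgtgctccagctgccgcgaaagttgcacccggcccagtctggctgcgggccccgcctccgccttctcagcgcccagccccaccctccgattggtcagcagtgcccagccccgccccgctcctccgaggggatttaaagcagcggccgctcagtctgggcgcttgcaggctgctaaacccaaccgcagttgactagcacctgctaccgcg

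Motifs were searched on both strands in these windows and in all 35116 windows of the RefSeq table. The cAMP response element TGACGTCA, found in 1.85% of all windows, was in none of the 4. Its half-site TGACG, which the full element contains, was in 24.6% of all windows. It matched once in RGS1 (first base at -128 from the start, on the minus strand) and once in RGS2 (at -181, on the minus strand), and not in RGS13 or RGS16. A TATAAA box lay at -27 in RGS1, on the plus strand. TATAAA was in 11.5% of all windows, counted anywhere in the window and on either strand. The share of windows with it near -27 was not computed. The AP-1 site TGANTCA (7.71% of windows), the NR4A site AAAGGTCA (1.22%), the ATF4-CHOP site TGATGNAA (3.62%), the CArG box (1.29%) and the NF-kB consensus (5.91%) matched in none of the 4. A looser NF-kB pattern that accepts any base at both middle positions, added after the sequences were seen, was in 11.3% of windows and matched in RGS1 at -106. Base composition differed along the cluster. G and C made up 41.7% of the RGS1 window, 33.7% of RGS13, 69.7% of RGS2 and 67.0% of RGS16, beside a median of 58.7% over all windows. Counted anywhere in a window, the motifs were not particular to genes called higher. Among windows of the other members, the half-site also matched in RGS12 and RGS3, and the looser NF-kB pattern in RGS12. TATAAA matched in RGS3 at -166, not at the position of the RGS1 match (-27). RGS12 and RGS3 have several windows each, and neither gene was called. All these matches are letters only, and binding was not measured.

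The genes whose pattern over the 4 libraries was most like that of RGS1 or RGS2 were found by the root mean square distance between centred log2 CPM values, among genes averaging 5 CPM or more. By log2 fold change, RGS1 was at place 12 of the 18368 genes tested. Its nearest gene, the nuclear receptor NR4A2, was 0.61 log2 units away, and the next were IL23A (1.44), RGS2 (1.45), OTUD1 (1.61) and HSPA6 (1.63). Nearest to RGS2 were IL23A at 0.17, HSPA6 at 0.20, ACSS2 at 0.27, TNFAIP3 at 0.28 and PPP1R15A at 0.28. With 2 libraries a group, such a distance mostly ranks genes by the size of their fold change. As an example, IL23A was at 5.30 and 4.74 CPM in vehicle and 51.6 and 55.0 CPM in Spautin-1.

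The 11 other numbered RGS genes were examined next. Of these, 4 (RGS4, RGS6, RGS21 and RGS22) had no read, RGS8 and RGS11 had 16 and 26 reads over all libraries, and 5 were tested. RGS9, a regulator known from photoreceptors and striatal neurons, rose 1.67-fold, from 154 and 162 reads in vehicle to 226 and 291 in Spautin-1 (edgeR adjusted p = 0.0366). It was not called without Spautin-1 replicate 2 (log2 fold change 0.49, edgeR adjusted p = 0.367). RGS5 (0.16 ± 0.40), RGS7 (-0.10 ± 0.42), RGS17 (0.16 ± 0.83) and RGS20 (0.43 ± 0.50) differed by less than their SE on the log2 scale. By RPKM, the RGS mRNAs of these cells were thus mainly those of RGS10, RGS19 and RGS13 in vehicle. RGS1 and RGS2 joined them after Spautin-1, and RGS16 (5.65 RPKM) then came close to RGS19 (6.01 RPKM).

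G alpha subunits are the substrates of RGS proteins. The Gi-class genes GNAI2 (9.23 ± 1.29 RPKM in vehicle), GNAI3 (5.18 ± 0.0958) and GNAZ (11.5 ± 0.24) were expressed. The Gq-class genes were close to absent: over all 4 libraries GNAQ had 6 reads, GNA11 4, GNA14 0 and GNA15 22, with at most 0.0837 RPKM in a library. GNAI1 had 2 reads. Of 7 alpha genes tested of 13, 1 rose and none fell, that is 14.3% called beside 22.0% of all genes. GNA13, the G12-class subunit that confines germinal-centre B cells, rose 1.69-fold from 22.5 and 22.1 CPM to 40.8 and 34.8 CPM (edgeR adjusted p = 0.00224). It missed the threshold without Spautin-1 replicate 1 (edgeR adjusted p = 0.0524). GNAI2 gave -0.23 ± 0.13 and GNAZ -0.24 ± 0.13 on the log2 scale (edgeR adjusted p = 0.234 and 0.203), and 1 alpha gene, GNAI2, was called lower without vehicle replicate 1. Among beta and gamma subunits, 1 of 10 tested rose and none fell, that is 10% called beside 22.0% of all genes. GNG2, a gamma subunit, rose 1.97-fold from 21.6 and 17.8 CPM to 38.9 and 38.6 CPM (edgeR adjusted p = 0.000588). GNB1 gave 0.09 ± 0.11 and GNG10 -0.42 ± 0.17 (edgeR adjusted p = 0.601 and 0.0983). Without vehicle replicate 1, 2 beta or gamma genes were called lower, and without vehicle replicate 2, 1 (GNG10). GNG10 shares 1087 exonic bases with the readthrough gene DNAJC25-GNG10.

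Receptors drive these G proteins. Of 29 tested lymphocyte receptors of 50 listed, 9 rose and 3 fell, that is 41.4% called beside 22.0% of all genes, and their median log2 fold change was 0.19. The list was chosen with earlier results of these data known, so nothing is read from this share. The chemokine receptor CCR7, which guides cells to lymph-node T zones, rose 6.36-fold from 4.95 and 4.87 CPM to 29.3 and 33.2 CPM (edgeR adjusted p = 1.07e-06). GPR183, the oxysterol receptor EBI2, rose 5.92-fold from 4.09 and 2.69 to 19.1 and 21.0 CPM (edgeR adjusted p = 9.74e-06). The Gs-coupled prostaglandin receptor PTGER4 rose 3.44-fold from 7.0 and 9.83 to 26.6 and 31.4 CPM (edgeR adjusted p = 5.56e-05). P2RY8, which signals through GNA13, rose 1.69-fold from 115 and 99.2 to 179 and 182 CPM (edgeR adjusted p = 0.000602). It lies in a region shared by chromosomes X and Y, and the table gives exons on both. CXCR5, the follicle-homing receptor and the strongest of the list, rose 1.25-fold from 177 and 184 to 217 and 236 CPM (edgeR adjusted p = 0.0364), but was not called with library size scaling (adjusted p = 0.063 by edgeR) or without either Spautin-1 library (edgeR adjusted p = 0.167 and 0.376). CXCR4, S1PR1, GPR55 and GPR132 complete the 9 that rose. S1PR1 rested on 8 and 4 reads in vehicle and 25 and 30 in Spautin-1, and CXCR4 on 6 and 10 against 82 and 65. Both passed the filter through their Spautin-1 libraries alone. At their vehicle level they would not have been tested, so their calls add no support to the count. S1PR1 (edgeR adjusted p = 0.0464) was not called by DESeq2 (adjusted p = 0.0614) or limma-voom (adjusted p = 0.0537), nor without vehicle replicate 2 or either Spautin-1 library. With each library left out (vehicle 1, vehicle 2, Spautin-1 1, Spautin-1 2), 10, 8, 7 and 7 receptors were called higher and 4, 2, 2 and 2 lower. Those that fell included P2RY11 (2.79-fold, edgeR adjusted p = 0.000438) and the leukotriene B4 receptor LTB4R (2.06-fold, adjusted p = 0.0145 by edgeR). LTB4R was not called without Spautin-1 replicate 2. P2RY11 shares 1148 exonic bases with the readthrough gene PPAN-P2RY11, LTB4R 355 with LTB4R2, and CXCR5 3913 with the opposite-strand gene BCL9L. GPR55 shares 600 with an opposite-strand gene. The counts of these receptors may include reads from the genes they overlap. Reads in shared bases may count for both genes, since MIR4426 and RPS27AP5, which share 63 bases, had 45 and 52 reads over all libraries.

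**Figure D5:**
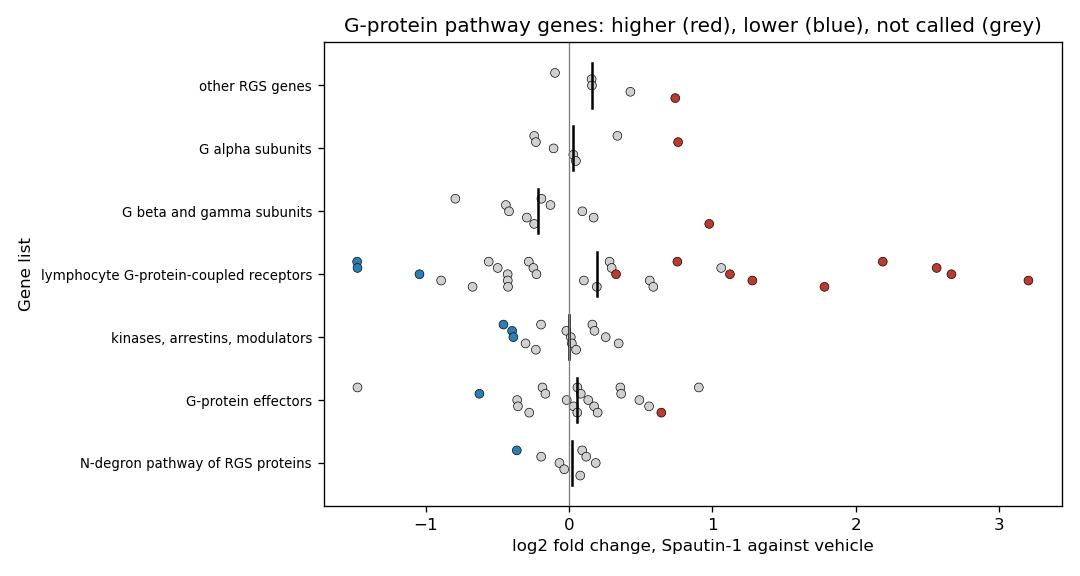
Log2 fold change of each tested gene of the 7 pathway lists, Spautin-1 against vehicle, with genes called higher in red, called lower in blue and not called in grey, and a black bar at each list's median. The receptors spread widest, from -1.48 to 3.21, and 9 of them are red and 3 blue.

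The remaining lists hold the genes that tune and carry the signal. Among receptor kinases, arrestins and G-protein modulators, 3 of 14 tested fell and none rose, that is 21.4% called beside 22.0% of all genes. They were PDCL, a chaperone of beta-gamma assembly (-0.46 ± 0.12 on the log2 scale, edgeR adjusted p = 0.0166), RIC8A, the chaperone of alpha subunits (-0.39 ± 0.12, edgeR adjusted p = 0.0342), and CCDC88A (-0.40 ± 0.13, edgeR adjusted p = 0.0495), which modulates Gi. None of the 3 was called without Spautin-1 replicate 1 or without Spautin-1 replicate 2. CCDC88A was also not called without vehicle replicate 1 or by limma-voom (adjusted p = 0.053), and shares bases with an opposite-strand gene. Without vehicle replicate 1, 1 gene of this list was called higher and 4 lower. The receptor kinase GRK2 gave 0.01 ± 0.10. Among effectors, 1 of 21 tested rose and 1 fell, that is 9.52% called beside 22.0% of all genes. PLCB2, the phospholipase C of blood cells, rose 1.56-fold from 48.0 and 49.4 to 78.5 and 73.6 CPM (edgeR adjusted p = 0.00217). PRKAR1B, a regulatory subunit of protein kinase A, fell 1.54-fold (log2 fold change -0.63, edgeR adjusted p = 0.0125), and without Spautin-1 replicate 2 it was -0.46 and not called (edgeR adjusted p = 0.237). PRKAR1A (0.13 ± 0.10) and PLCB3 (-0.19 ± 0.14) did not pass, but both were called without vehicle replicate 1. Without vehicle replicate 1, 4 effectors were called higher and 4 lower, and 2981 and 2785 of all genes. Without vehicle replicate 2, 2 effectors were called lower (2416 of all genes), and without Spautin-1 replicate 1, 2 were called higher (1244 of all genes). In the N-degron pathway, which degrades some RGS proteins after their first residue is exposed and modified, 1 of 8 tested fell, that is 12.5% called beside 22.0% of all genes. This was METAP2, a methionine aminopeptidase, at 1753 and 1749 CPM in vehicle and 1423 and 1294 CPM in Spautin-1 (edgeR adjusted p = 0.00763). It was not called without Spautin-1 replicate 2 (edgeR adjusted p = 0.149), and without vehicle replicate 1, 2 genes of this list were called higher.

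Over all 7 pathway lists, 13 of 94 tested genes rose and 8 fell, together 22.3%, beside 22.0% of all genes tested. Their median log2 fold change was 0.04. Without vehicle replicate 1 these counts were 20 and 16, without Spautin-1 replicate 1 they were 11 and 4, and without Spautin-1 replicate 2 they were 10 and 2.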

How the data were processed

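RNA sequencing of 2 vehicle and 2 Spautin-1 libraries was analysed from the raw read counts per gene deposited by the authors. Libraries were made with a stranded mRNA kit, per the labels' protocols, and Trimmomatic 0.36 trimmed the reads and GRCh38 genes were counted by featureCounts (Subread 1.5.1), per the submitters' processing notes. The aligner, annotation release and strand setting were not given in the sources used here.

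Counts were fitted in R 4.3.3 with edgeR 4.0.16 (filterByExpr, minimum count 10 and minimum total 15; TMM; quasi-likelihood F test, two-sided; Benjamini-Hochberg over 18368 genes, threshold 0.05). With 2 libraries a group, the smallest p of an exact permutation test is 0.333. SE is the absolute log2 fold change divided by the square root of F. RPKM uses the exonic length that the deposited table gives. Alternatives used DESeq2 1.42.0, limma 3.58.1 (voom), other scalings and filters, a replicate block, and each library left out. A fit with halved counts was added after the data were seen. The procedure was tested on simulated data.

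The members, 7 pathway lists and marker lists were chosen with earlier results of these data known. Named pathway genes were the 3 called genes with the smallest p in each direction and the 2 most abundant per list, and genes within 500 kb of RGS1 to RGS2. Other receptors that complete a count were named after their values were seen, and some genes that the rule names are not reported here. Promoter windows came from RefSeq (GRCh38.p14), which held all 10 members. Replicates of each group differed by more than sampling noise (mean chi-square per gene of 31.9 for vehicle and 9.36 for Spautin-1). These chi-square values treat every read as independent and used counts that were not halved.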

Additional observations from a re-analysis of the deposited data

How the results depend on the processing

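Leaving out a single library moved the counts of calls most. With each library left out in turn, 1067 to 2981 genes were called higher (2112 with all 4) and 780 to 2785 lower (1933 with all 4). For the G-protein pathway lists together these counts ran from 10 to 20 higher (13 with all 4) and from 2 to 16 lower (8 with all 4). The lowest counts came without Spautin-1 replicate 2 and the highest without vehicle replicate 1, when the lone library of a group is assumed to vary like the other group. RLE and library size scaling, both other filters, DESeq2, limma-voom and halved counts kept all 4 counts within 1.5 times. With the replicate number as a block, 2615 genes were called higher and 2485 lower, and 14 and 10 pathway genes. The numbers are not said to pair the libraries, and the deviations of same-numbered libraries had a correlation of -0.0015 across genes. No member's log2 fold change moved by more than its spread between replicates. This was largely set in advance, because leaving out 1 of 2 replicates moves a group mean by only part of their difference. It is therefore no measure of stability. RGS12 changed sign without vehicle replicate 1 or Spautin-1 replicate 2. With 2 libraries a group and 2 residual degrees of freedom, small differences such as those of RGS3 and RGS10 are not resolved.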
